A study of Mus musculus with 8 samples.

Results

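The genes described here are 10 mouse genes of osteoclast formation and bone resorption, followed through 8 knee joint libraries. They were taken by gene name from a table of 20681 gene rows, and all 10 were found once. By role they are the signalling trio Tnfsf11, Tnfrsf11a and Tnfrsf11b, the transcription factor gene Nfatc1, the fusion genes Dcstamp and Ocstamp, the receptor gene Oscar, and the resorption genes Acp5, Ctsk and Atp6v0d2.

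Whole knee joints of mice were profiled by sequencing of polyadenylated RNA, with 4 libraries labelled control and 4 labelled knockout. The series describes all 8 samples as knee joints of Acan-Cre;Loxl2 fl/fl mice, in which a Cre recombinase driven by the cartilage gene Acan can delete Loxl2, the gene of a collagen-crosslinking enzyme. The control samples are called vehicle-treated and carry LOXL2wt in their library names, and what the others, named LOXL2ko, received in place of vehicle is not given in the sources used here. Every library name also carries DMM, an abbreviation in common use for surgical destabilisation of the medial meniscus that the labels do not spell out. The labels give no age, sex, time after injury or batch.

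Osteoclasts are large multinucleated cells that arise by fusion of precursors of the monocyte and macrophage lineage and dissolve bone. The ligand RANKL, made by osteoblast-lineage cells, osteocytes, stromal cells, hypertrophic chondrocytes and lymphocytes, binds the receptor RANK on those precursors, while the soluble decoy receptor osteoprotegerin binds the ligand and keeps it from RANK. RANK signalling, together with M-CSF and receptors that work through ITAM adaptors, induces the transcription factor NFATc1, which drives the genes for cell fusion, for the acid pump and for the enzymes secreted onto bone. Osteoclasts do not belong to the aggrecan-expressing lineage in which the Cre is active.

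The libraries held 13991000 to 17411617 reads assigned to genes. Values below are normalised read counts, and differences are group means of log2 values, knockout label minus control label, on the log2(value + 1) scale, which understates the change of low genes. The targeted gene was not lower under the knockout label. Loxl2 stood at 282, 349, 1135 and 311 across control replicates 1 to 4, and at 893, 1468, 960 and 1518 under the knockout label, so the groups are called by their labels. Control replicate 3 overlapped the other group, and the higher level (log2 difference 1.44, limma adjusted p = 0.0294) was called in 9 of 17 alternatives and lost with edgeR (edgeR adjusted p = 0.0669) and DESeq2 (DESeq2 adjusted p = 0.0659) and without control replicate 1 (limma adjusted p = 0.0663), control replicate 2 (0.0795), control replicate 4 (0.0766), knockout replicate 2 (0.0744) or knockout replicate 4 (0.0847). Reads were counted over the whole gene and the deleted exons are not named, so that a transcript lacking them would still be counted. Of 14949 genes tested with limma, 3461 (23.2%) were called at an adjusted p under 0.05, 1732 of them higher. When the libraries were scaled without muscle, erythroid and neutrophil genes and the 50 highest genes, 3503 were called, 2726 of them higher, and over all genes the median difference shifted from 0.00 to 0.15. Nothing in the labels says whether the samples of a group came from separate animals, so p-values measure the spread between these samples.

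All but 1 of the genes rose. By limma 9 of 10 were called higher, beside 11.6% of all genes tested that were called higher, and none was called lower. The median log2 difference of the 10 genes was 2.58 beside 0.00 for all genes tested, and 7 of the 10 differed by at least 2, a size reached by 135 of all genes tested (0.903%). Nfatc1 was the exception. The groups kept apart without overlap for only 2 genes, Tnfsf11 and Ctsk, beside 11.7% of all genes that did so in the upward direction. For 6 of the others control replicate 1 lay among the libraries labelled knockout while the other 3 control libraries lay below all of them, a pattern shown by 3.49% of all genes tested. Without control replicate 1 the groups were separate for 8 genes, beside 15.2% of all genes tested, and without knockout replicate 2 also for 8, beside 14.1%. The number of these genes called was 9 without control replicate 1 (10.5% of all genes were then called higher), 7 with edgeR (11.3%), 7 with DESeq2 (14.3%) and 6 under quantile normalisation (8.68%). It was 3 without control replicate 2 (6.64%), knockout replicate 1 (8.11%) or knockout replicate 4 (5.53%), and 4 without control replicate 4 (7.85%). Tnfsf11, Oscar and Ctsk stayed called in each of the 17 alternative analyses.

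**Figure D1:**
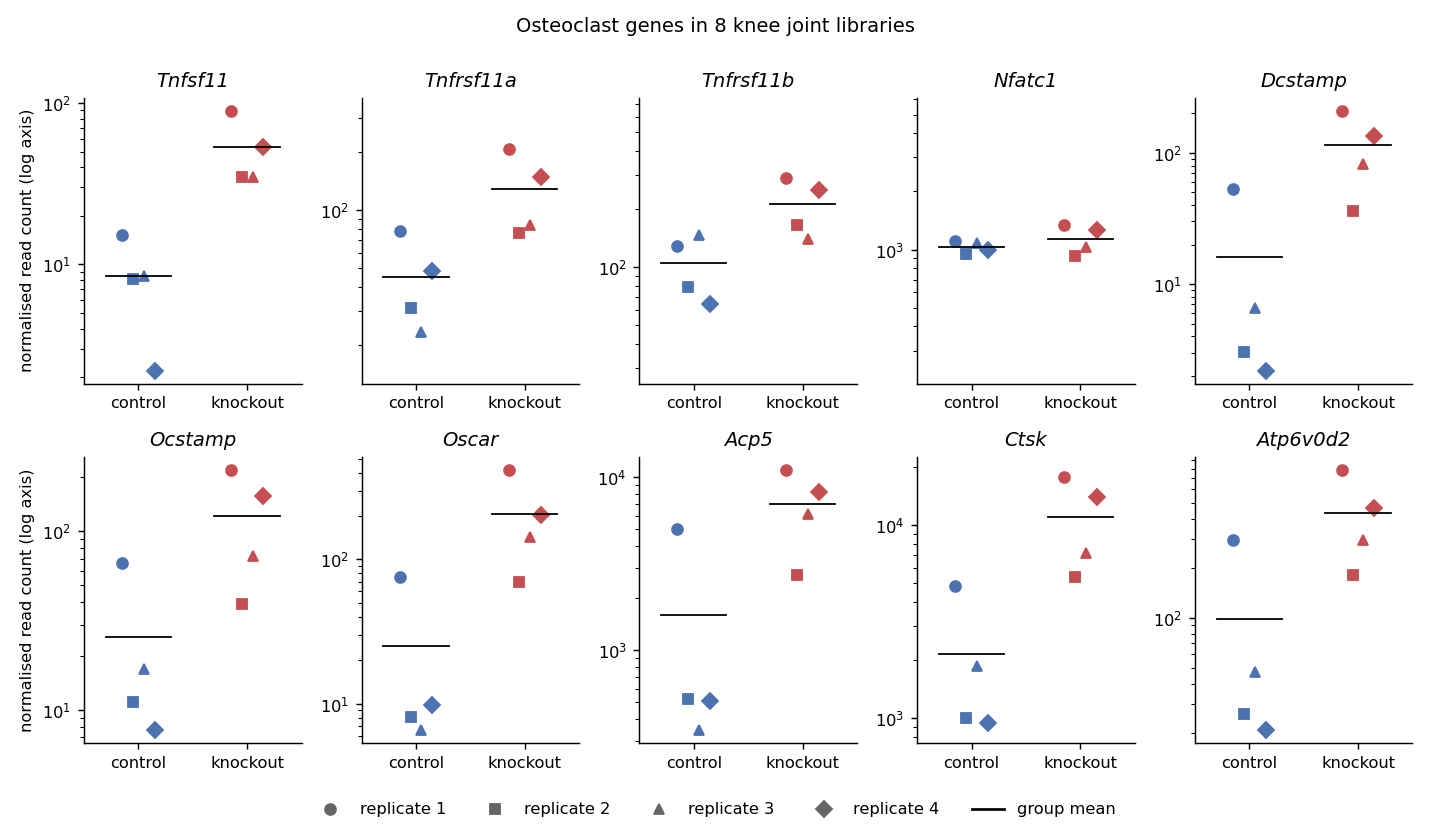
Normalised read count of each of the 10 genes (log axes whose ranges differ between panels) in the 4 control libraries (blue) and the 4 libraries labelled knockout (red); marker shapes give the replicate number and lines the group means. Control replicate 1 (circle) is the highest control library for 9 of the genes, and for Acp5 it reaches 5002 while the other control libraries stay between 344 and 519.

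Tnfsf11 encodes RANKL, the ligand without which osteoclasts do not form. The gene lies on chromosome 14 from 78277445 to 78308043 on the minus strand (mm10, as are all positions here). It was scarce in the control libraries, at 15.1, 8.08, 8.41 and 2.19 in replicates 1 to 4, which rest on 14, 8, 9 and 2 reads. The libraries labelled knockout held 89.8, 35.1, 34.8 and 53.7, on 90, 41, 32 and 61 reads. Each of these lay above every control library. Tnfsf11 rose by a log2 of 2.63 ± 0.51 (SE; limma adjusted p = 0.00917), from a mean of 8.46 ± 5.29 to 53.3 ± 25.8 (SD, n = 4 each), a ratio of means of 6.31.

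Tnfrsf11a encodes RANK, the receptor on osteoclast precursors (chromosome 1, 105780718 to 105847981, plus strand). Control replicates 1 to 4 stood at 77.9, 31.3, 23.4 and 48.2, and knockout replicates 1 to 4 at 206, 76.1, 83.7 and 148. Only control replicate 1 reached into the other group, just above knockout replicate 2. The receptor gene rose by a log2 of 1.51 ± 0.42 (SE; limma adjusted p = 0.0281), from 45.2 ± 24.1 to 129 ± 61.1 (SD, n = 4 each). Its call was lost without control replicate 2 (limma adjusted p = 0.0761), control replicate 3 (0.0542), control replicate 4 (0.0513), knockout replicate 1 (0.0693) or knockout replicate 4 (0.0810), and under quantile normalisation (0.0596).

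Tnfrsf11b encodes osteoprotegerin, the decoy that holds RANKL back (chromosome 15, 54250619 to 54278484, minus strand). It rose as well, by the smallest amount among the 9 called genes. The control libraries held 129, 78.7, 148 and 64.6 and those labelled knockout 291, 165, 139 and 250, so that control replicate 3 lay above knockout replicate 3. The decoy gene differed by a log2 of 1.02 ± 0.31 (SE; limma adjusted p = 0.0406), from 105 ± 39.6 to 211 ± 71.2 (SD, n = 4 each). This call was lost without control replicate 2 (limma adjusted p = 0.105), control replicate 4 (0.0970), knockout replicate 1 (0.0981), knockout replicate 2 (0.0582) or knockout replicate 4 (0.112), and under quantile normalisation (0.0745).

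Since ligand and decoy compete, their balance was taken within each library. The log2 ratio of Tnfsf11 to Tnfrsf11b ran -3.01, -3.14, -3.98 and -4.36 through control replicates 1 to 4, against -1.69, -2.20, -1.97 and -2.20 through the libraries labelled knockout. Per kilobase of exon, too, ligand was below decoy in all 8 libraries, and the ratio was higher in every library labelled knockout than in any control library. The mean ratio went from -3.62 ± 0.66 to -2.01 ± 0.24 (SD, n = 4 each), a difference of 1.61 (exact two-sided permutation p = 0.0286, the smallest that 4 against 4 libraries allow). With adjustment over the 3 ratios tested here the p was 0.0857, so the difference did not pass 0.05. The small ligand counts of the control libraries limit it, and with a pseudocount of 5 it was 1.12.

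**Figure D2:**
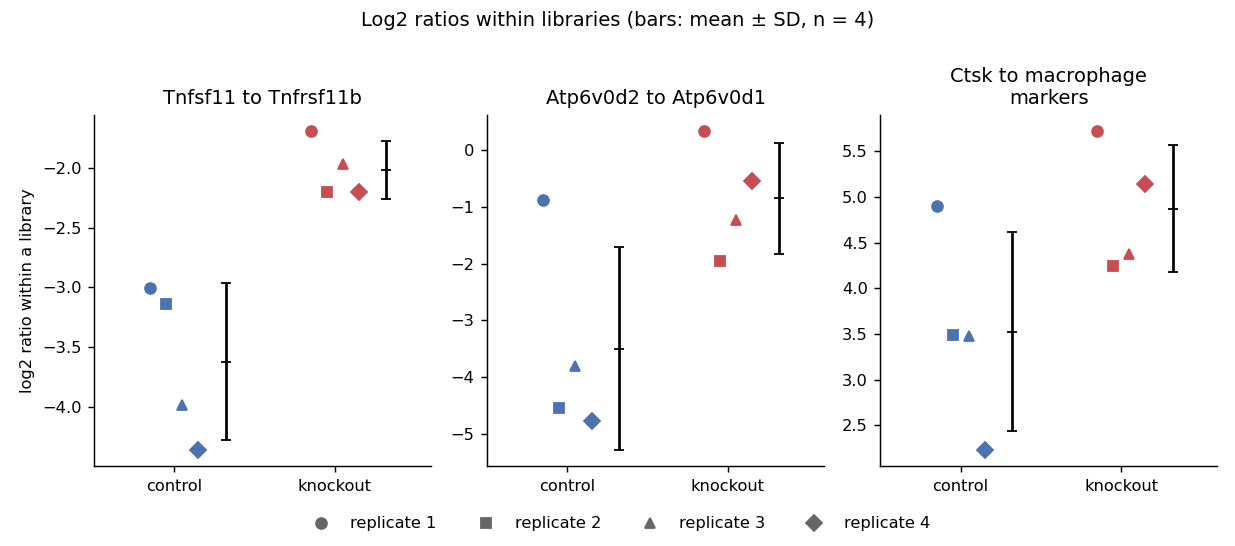
Log2 ratios within each library: Tnfsf11 to Tnfrsf11b, Atp6v0d2 to Atp6v0d1, and Ctsk to the mean of the macrophage markers, in the control (blue) and knockout-labelled (red) libraries, with mean ± SD (n = 4) beside the points. The first ratio separates the groups (at most -3.01 in control, at least -2.20 in the others), while control replicate 1 lies inside the other group for the other two.

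Nfatc1 encodes the transcription factor at the centre of the osteoclast programme, and it is also expressed in lymphocytes, endothelial cells and muscle. It lies on chromosome 18 (80606205 to 80713071, minus strand), with AC123818.1 annotated on the opposite strand, and since the use of strand in counting is not given, their reads were not necessarily kept apart. Its values were 1114, 954, 1088 and 991 in the control libraries and 1336, 925, 1034 and 1257 in those labelled knockout. The groups overlapped, with knockout replicate 2 the lowest of all 8 libraries. Its log2 difference of 0.12 had a 95% interval of -0.15 to 0.40 (limma adjusted p = 0.5004), and it stayed between 0.04 and 0.27 without a call in all 17 alternatives. The interval thus reaches at most a log2 of 0.40, below the lower ends of the intervals of the other members except Tnfrsf11b (0.33).

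Dcstamp and Ocstamp encode the membrane proteins DC-STAMP and OC-STAMP, which precursors need to fuse into multinucleated osteoclasts. Dcstamp (chromosome 15, 39745930 to 39760938, plus strand) was almost absent from 3 control libraries, with 53.0, 3.03, 6.54 and 2.19 in control replicates 1 to 4, on 49, 3, 7 and 2 reads. The libraries labelled knockout held 209, 35.9, 81.6 and 135. Control replicate 1 lay above knockout replicate 2, and the other control libraries lay below the whole group. Dcstamp rose by a log2 of 3.51 ± 0.86 (SE; limma adjusted p = 0.0189), and by 4.39 without control replicate 1, from 16.2 ± 24.6 to 115 ± 74.6 (SD, n = 4 each). The call was lost without control replicate 2 (limma adjusted p = 0.0546), knockout replicate 1 (0.0501) or knockout replicate 4 (0.0581).

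Ocstamp (chromosome 2, 165393760 to 165400405, minus strand) followed the same libraries. It stood at 66.0, 11.1, 16.8 and 7.67 in the control group and at 219, 39.3, 72.9 and 158 in the other. Control replicate 1 was again above knockout replicate 2 and the other control libraries below all 4. The fusion gene rose by a log2 of 2.42 ± 0.68 (SE; limma adjusted p = 0.0305), and by 3.04 without control replicate 1, from 25.4 ± 27.3 to 122 ± 81.6 (SD, n = 4 each). Its call was lost without control replicate 2 (limma adjusted p = 0.0827), control replicate 3 (0.0517), control replicate 4 (0.0777), knockout replicate 1 (0.0767) or knockout replicate 4 (0.0892), and under quantile normalisation (0.0525).

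Oscar encodes an immunoglobulin-like receptor that binds collagen and gives the co-stimulatory signal through the adaptor FcRγ (chromosome 7, 3609813 to 3616157, minus strand). Control replicates 1 to 4 held 75.7, 8.08, 6.54 and 9.86, and knockout replicates 1 to 4 held 415, 69.3, 142 and 202. As for the fusion genes, control replicate 1 lay above knockout replicate 2 and the other control libraries below the whole group. Oscar rose by a log2 of 3.47 ± 0.75 (SE; limma adjusted p = 0.0127), from 25.0 ± 33.8 to 207 ± 149 (SD, n = 4 each), and remained called in 17 of 17 alternatives with a difference of 3.04 to 4.24, the highest without control replicate 1.

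Promoter sequences are shown for Oscar, Ctsk and Acp5, because these genes moved together and are known as targets of NFATc1 and its partners. The 250 bases before each annotated start were taken from RefSeq's promoters on GRCm38.p6, the assembly of mm10, in which 5 of the 10 genes matched, with 7 starts. They were searched on both strands for TGANTCA (AP-1), TGGAAA (NFAT), GAGGAA (PU.1) and CATGTG (MITF), and capitals mark each match on either strand. Windows on the minus strand are written 5′ to 3′ along the gene.
Oscar, chr7:3616158-3616407, minus strand: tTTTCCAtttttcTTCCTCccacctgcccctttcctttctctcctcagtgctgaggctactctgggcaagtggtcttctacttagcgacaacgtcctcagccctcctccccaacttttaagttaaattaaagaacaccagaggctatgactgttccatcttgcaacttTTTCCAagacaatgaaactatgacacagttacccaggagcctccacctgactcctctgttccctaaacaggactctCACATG
Ctsk, chr3:95498960-95499209, plus strand: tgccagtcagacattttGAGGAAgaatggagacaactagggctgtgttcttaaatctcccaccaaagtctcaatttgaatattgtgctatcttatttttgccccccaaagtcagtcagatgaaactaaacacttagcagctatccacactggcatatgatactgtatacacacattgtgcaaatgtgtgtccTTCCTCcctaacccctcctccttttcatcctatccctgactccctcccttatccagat
Acp5, chr9:22130599-22130848, minus strand: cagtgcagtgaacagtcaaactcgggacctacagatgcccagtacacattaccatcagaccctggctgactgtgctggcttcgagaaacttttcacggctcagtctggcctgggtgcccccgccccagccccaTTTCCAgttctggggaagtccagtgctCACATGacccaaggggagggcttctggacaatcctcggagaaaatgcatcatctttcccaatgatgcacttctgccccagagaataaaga

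The Oscar window held the NFAT letters at 2 places, as TTTCCA on the written strand, the PU.1 letters once and the MITF letters once, the last directly at the start. The Ctsk window held the PU.1 letters at 2 places, 1 on each strand. Of the 3 annotated Acp5 starts only the window shown held a match, with the NFAT and the MITF letters once each, and it was chosen for that. None of the 7 windows held the AP-1 letters. Over all 32851 windows of the same length, 18.6% held the NFAT letters, 23.3% the PU.1 letters, 12.3% the MITF letters and 6.75% the AP-1 letters, so such short matches are common. They are matches of letters only and were not tested as binding sites. The windows of Tnfsf11 and Tnfrsf11a held none of the 4.

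Acp5 encodes tartrate-resistant acid phosphatase, the classical stain of osteoclasts, which some macrophages also make (chromosome 9, 22126727 to 22135711, minus strand, with 6530413G14Rik annotated opposite, so its count carries the same doubt about strand). It stood at 5002, 519, 344 and 506 across the control replicates and at 10971, 2717, 6097 and 8201 across the others. Control replicate 1 alone carried most of the control signal and exceeded knockout replicate 2. The phosphatase gene rose by a log2 of 2.92 ± 0.77 (SE; limma adjusted p = 0.0239), from 1593 ± 2274 to 6997 ± 3482 (SD, n = 4 each), and without control replicate 1 by 3.79. The call did not hold with edgeR (edgeR adjusted p = 0.0979) or DESeq2 (DESeq2 adjusted p = 0.0748), nor without control replicate 2 (limma adjusted p = 0.0674), control replicate 4 (0.0619), knockout replicate 1 (0.0603) or knockout replicate 4 (0.0687).

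Ctsk encodes cathepsin K, the protease that digests the collagen of bone, which activated fibroblasts of the joint lining can also make (chromosome 3, 95499256 to 95509362, plus strand). Per kilobase of exon it was the highest of the set in all 8 libraries. The control libraries held 4857, 1007, 1857 and 942 and the libraries labelled knockout 17744, 5385, 7194 and 14037. The groups did not overlap, although control replicate 1 came close to knockout replicate 2. Ctsk rose by a log2 of 2.53 ± 0.53 (SE; limma adjusted p = 0.0114), from 2166 ± 1842 to 11090 ± 5793 (SD, n = 4 each), a ratio of means of 5.12 (8.74 without control replicate 1), and the call held in 17 of 17 alternatives with a difference of 2.25 to 3.04.

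Atp6v0d2 encodes the d2 subunit of the proton pump (V-ATPase), the form of this subunit enriched in osteoclasts and also involved in their fusion (chromosome 4, 19876841 to 19922605, minus strand). Its values were 297, 26.2, 46.7 and 20.8 in the control libraries and 785, 182, 298 and 464 in the others. Control replicate 1 was above knockout replicate 2 and level with knockout replicate 3, and the remaining control libraries were far below. This subunit rose by a log2 of 2.80 ± 0.76 (SE; limma adjusted p = 0.0268), and by 3.62 without control replicate 1, from 97.8 ± 134 to 432 ± 262 (SD, n = 4 each). It lost its call with edgeR (edgeR adjusted p = 0.0764) and DESeq2 (DESeq2 adjusted p = 0.0745), and without control replicate 2 (limma adjusted p = 0.0756), control replicate 4 (0.0683), knockout replicate 1 (0.0677) or knockout replicate 4 (0.0738).

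Atp6v0d1, the widely expressed gene of the same pump subunit, did not follow. It had 611 ± 49.9 in the control group and 675 ± 42.3 in the other (SD, n = 4 each), a change of 0.15 ± 0.09 on the log2 scale (SE; limma adjusted p = 0.267), and it was called in 1 of 17 alternatives, the scaling without muscle and the most abundant genes. The log2 ratio of Atp6v0d2 to Atp6v0d1 ran -0.88, -4.54, -3.80 and -4.77 through control replicates 1 to 4, against 0.35, -1.96, -1.23 and -0.54 through the libraries labelled knockout. The difference of the means was 2.66 (exact two-sided permutation p = 0.0857, also 0.0857 with adjustment over the 3 ratios), because control replicate 1 lay inside the other group. Without control replicate 1 it was 3.53 (exact permutation p = 0.0286, the smallest that 3 against 4 libraries allow). Leaving out the only overlapping control library, after its place was seen, fixes that p in advance.

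**Figure D3:**
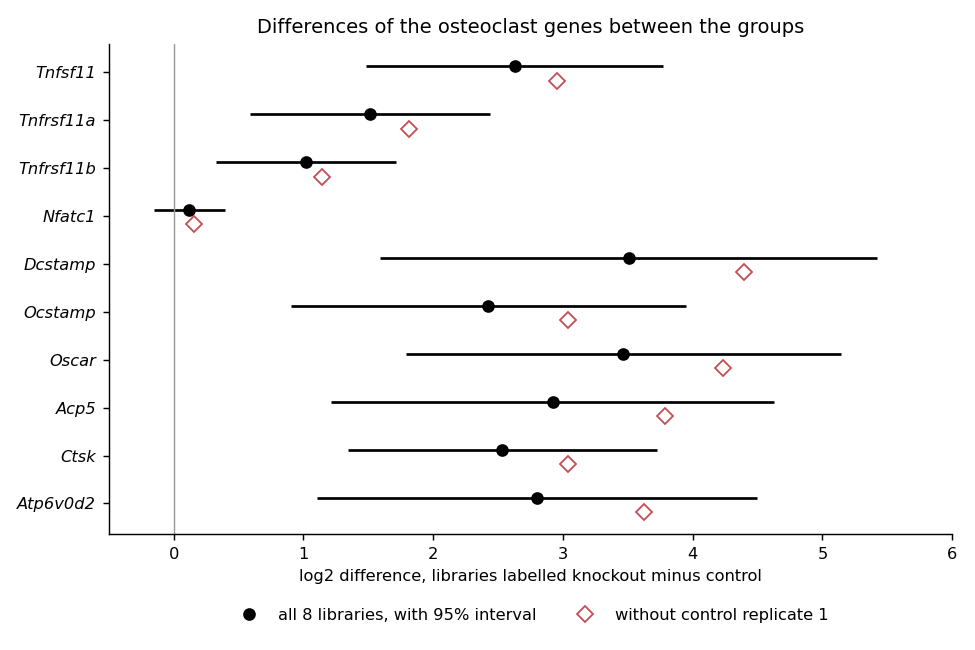
Log2 difference of each gene, libraries labelled knockout minus control, with the 95% interval of the limma fit over all 8 libraries (black) and the difference without control replicate 1 (open red diamonds). All intervals but that of Nfatc1 lie above 0, and leaving out control replicate 1 moves every difference upward, most for Dcstamp (from 3.51 to 4.39).

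To compare levels between genes, values were divided by the kilobases of annotated exon. In the libraries labelled knockout the mean level per kilobase was 7335 for Ctsk and 3447 for Acp5, far above 159 for Atp6v0d2, 152 for Nfatc1 and 112 for Oscar. Below them came Tnfrsf11b at 75.0, Dcstamp at 43.3, Ocstamp at 33.4, Tnfsf11 at 23.9 and Tnfrsf11a at 21.5. Ctsk and Acp5 were also the highest in the control group, at 1433 and 785 per kilobase, followed by Nfatc1 at 139. Without control replicate 1 the control means were 839 for Ctsk and 225 for Acp5. Tnfsf11 had the lowest control mean, at 3.78, but without control replicate 1 Dcstamp was lower, at 1.47 against 2.78. Within the libraries labelled knockout the neighbours Atp6v0d2, Nfatc1 and Oscar overlapped in their ranges per kilobase (67.1 to 289, 124 to 179 and 37.5 to 225), so their order is not fixed by these data. The exon length joins all annotated transcripts of a gene, so a gene with many unused exons appears lower on this scale.

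The genes varied together from library to library within the groups too. In the libraries labelled knockout 8 of the 10 followed the order replicate 1, 4, 3 and 2 from high to low, and replicate 1 was the highest for all 10. Tnfsf11 and Tnfrsf11b were the exceptions to the order, with replicate 3 lowest, for Tnfsf11 by little (34.8 against 35.1 in replicate 2). In the control group replicate 1 was the highest for 9 of the 10, the exception being Tnfrsf11b. How many of all genes tested share these orders was not counted, so the orders only describe the set. For 6 genes control replicate 1 was at least 2 times the highest of the other control libraries, beside 1.54% of all genes tested. These were Dcstamp, Ocstamp, Oscar, Acp5, Ctsk and Atp6v0d2, the genes of fusion, co-stimulation and resorption, and the threshold was chosen after their values had been seen.

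A whole knee holds bone, cartilage, synovium, muscle and marrow, and fewer cells of a type cannot be told apart here from less RNA per cell. Markers of bone-forming cells were also high in control replicate 1 and highest in knockout replicate 1. By mean log2 level knockout replicates 2, 3 and 4 were close to each other for them (8.81, 8.73 and 8.66). By summed value knockout replicate 4 was the second highest for them (87307), as it was for the osteoclast genes by either measure. Of 10 osteoblast and osteocyte markers, all were tested, 10 had a higher mean log2 level in the libraries labelled knockout and 5 were called higher (3 with edgeR and 3 with DESeq2), among them Runx2 (log2 difference 1.75, limma adjusted p = 0.0206), Alpl (1.19, 0.0200), Ibsp (2.27, 0.0351) and Col1a1 (1.68, 0.0214). Their summed value was 65074 in control replicate 1 against 14325 to 33152 in the other control libraries and 70867 to 105614 in those labelled knockout, and none was at 0 in any library. Most of that sum was Col1a1, which fibroblasts also make, with 58034 in control replicate 1. Of these 4, the calls of Alpl, Runx2 and Col1a1 each fell away when some single libraries were left out (limma adjusted p at most 0.0600), and that of Ibsp also with edgeR (edgeR adjusted p = 0.0879). Without control replicate 1, 8 of the 10 markers were called higher. Measured against the mean log2 level of these markers within a library, 8 of the 10 osteoclast genes were higher on average in the libraries labelled knockout, with a median difference of 1.18, and the groups were separate only for Oscar. Tnfrsf11b (-0.38) and Nfatc1 (-1.28) were lower on that scale. The part of bone-cell content in the osteoclast genes was not tested.

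Macrophage markers were higher too, but did not single out control replicate 1. Of 10 markers 8 were called higher and 8 had separate groups, with a median log2 difference of 1.17. C1qb (1.28, limma adjusted p = 0.00399), Cd14 (1.17, 0.00677), Cd68 (1.71, 0.00687) and C1qa (1.18, 0.00707) had the smallest adjusted p. The summed value was 1363 to 2918 in the control libraries, with replicate 1 at 2148, and 4464 to 5676 in the libraries labelled knockout, and no marker was at 0. Measured against the mean log2 level of these markers within a library, 8 of the 10 osteoclast genes were still higher on average in the libraries labelled knockout, with a median difference of 1.39, and Tnfrsf11b (-0.17) and Nfatc1 (-1.06) were not. The groups were separate on this scale only for Tnfsf11, higher in every library labelled knockout, and for Nfatc1, lower in every one of them. The log2 ratio of Ctsk to the macrophage markers ran 4.90, 3.49, 3.48 and 2.23 through control replicates 1 to 4, against 5.73, 4.24, 4.38 and 5.15 through the libraries labelled knockout. The difference was 1.35 (exact two-sided permutation p = 0.0857, also 0.0857 with adjustment over the 3 ratios). Without control replicate 1 it was 1.81 (exact permutation p = 0.0286, the smallest that 3 against 4 libraries allow). Here too the only overlapping control library was left out after its place was seen, which fixes that p in advance.

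Other marker lists moved in both directions. Skeletal muscle markers were lower in 9 of 9 and called in 4 (8 with edgeR and 8 with DESeq2), with a summed share of 10.4 to 11.02% of all values in the control libraries and 6.23 to 8.48% in the others. Fibroblast markers were higher in 6 of 6 and called in 3, with a median log2 difference of 1.17, that of the macrophage markers, and summed values of 17818 to 75911 and 66830 to 129098. Chondrocyte markers, of the lineage in which the Cre is active, were higher in mean in 5 of 5 (median 0.79) but called in 0 of 5 by limma (1 at an unadjusted p under 0.05, 0 with edgeR and 1 with DESeq2), with summed values of 2971 to 7753 in the control group and 7669 to 12101 in the other, and Matn3 was at 0 in at least 1 library. Neutrophil markers (7 tested) and erythroid markers (6 tested) had 0 calls by limma, edgeR and DESeq2 and lower means in all, with 1 and 6 of them at an unadjusted p under 0.05, with wide ranges in both groups. Of 7 T and B cell markers 4 could be tested and 1, Cd3e, was called lower, while Cd3d and Cd8a were at 0 in at least 1 library. Whether these tissue shares bear on the osteoclast genes was not tested.

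**Figure D4:**
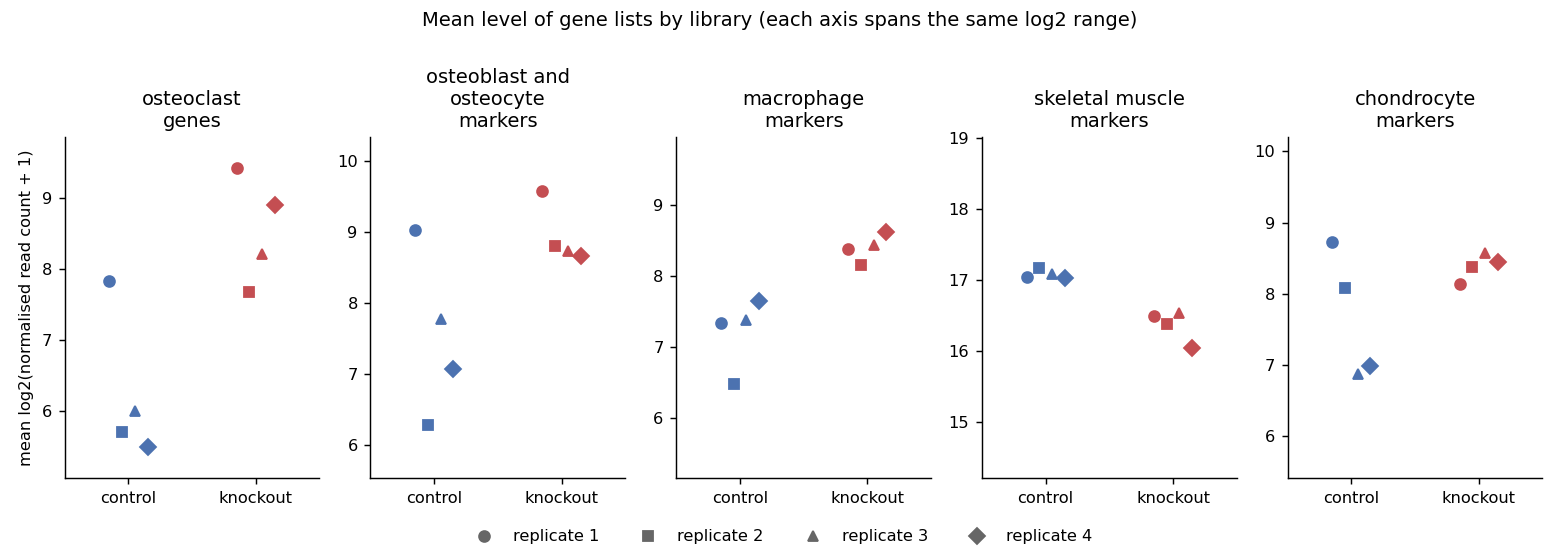
Mean log2(normalised read count + 1) of the 10 osteoclast genes and of 4 marker lists in each library (control blue, knockout-labelled red, shapes by replicate); every axis spans the same log2 range. Control replicate 1 (circle) is high for the osteoclast genes and the bone-cell markers, while for the macrophage markers it lies among the other control libraries. For the chondrocyte markers it is the highest of all libraries (8.72).

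Further genes of the pathway were read from 5 lists, which together gave 24 genes called higher and 5 called lower of 73 tested by limma (32 and 1 under the scaling without muscle and the most abundant genes). Among all genes tested, 11.6% were called higher and 11.6% lower (2726 and 777 of 15046 genes under that scaling). Of 21 genes of RANK and M-CSF signalling, 5 were called higher and 1 lower, with a median log2 difference of 0.27. Camk4, a kinase gene of the calcium branch, rose from 24.2 ± 17.8 to 155 ± 61.2 (log2 difference 2.78, limma adjusted p = 0.00516), and Spi1, the gene of the lineage factor PU.1, from 140 ± 65.7 to 451 ± 111 (1.78, limma adjusted p = 0.00795; SD, n = 4 each). Csf1r and Csf1, the M-CSF receptor and its ligand, rose by 1.58 (limma adjusted p = 0.0262) and 0.92 (0.0349). Both calls were lost without knockout replicate 1 (limma adjusted p = 0.0659 and 0.0847) or knockout replicate 4 (0.0754 and 0.0921), and that of Csf1 also without control replicate 2 (0.0860), control replicate 3 (0.0633), control replicate 4 (0.0766) or knockout replicate 2 (0.0693). The adaptor gene Traf6 (-0.02, limma adjusted p = 0.946) and the transcription factor gene Mitf (0.01, 0.948), named here after their values were seen, were not called. Without single libraries, the number of called genes of this list fell to 2 without knockout replicate 4 and to 3 without control replicate 2, 3 or 4 or knockout replicate 2.

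Among genes of the ITAM co-stimulation that Oscar belongs to, 4 of 9 tested were called higher and 0 lower, with a median of 0.96. Trem2 (log2 difference 1.49, limma adjusted p = 0.00397), Fcer1g, the gene of the adaptor FcRγ (1.36, 0.00429), and Tyrobp, the gene of the adaptor DAP12 (1.44, 0.0128), rose with separate groups and kept their calls in 17 of 17 alternatives. Plcg2 (0.98, limma adjusted p = 0.0395) kept its call in 8 of 17, and lost it for example without control replicate 4 (limma adjusted p = 0.0906) or knockout replicate 1 (0.0938). Macrophages express these genes as well. Inhibitors of osteoclast differentiation did not move in one direction. Of 9 tested, 2 were called higher, 1 lower and 6 neither. Il10ra, a subunit gene of the interleukin-10 receptor, rose by 0.90 (limma adjusted p = 0.0239), and Bcl6, a repressor of NFATc1 target genes, fell (-0.73, limma adjusted p = 0.00585, separate groups, 17 of 17 alternatives). The call of Il10ra was lost without control replicate 2 (limma adjusted p = 0.0553) or knockout replicate 4 (0.0716), and under quantile normalisation (0.0673).

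The machinery of resorption rose in 9 of 18 genes tested and fell in 1, with a median of 0.88. Mmp14, a membrane-bound matrix protease (log2 difference 2.28, limma adjusted p = 0.00511), Sh3pxd2a, a scaffold of podosomes (0.68, 0.00762), Src, the kinase needed for the ruffled border (1.38, 0.0118), and Slc4a2, the chloride-bicarbonate exchanger (0.71, 0.0128), had separate groups and kept their calls in 17 of 17 alternatives. Mmp14 and Sh3pxd2a are widely expressed beyond osteoclasts. Among markers closer to the mature osteoclast, the calcitonin receptor gene Calcr had 6.85 ± 4.95 and 19.9 ± 11.1 (log2 difference 1.46, limma adjusted p = 0.0685) and Siglec15 7.82 ± 11.6 and 36.5 ± 24.3 (2.85, 0.0579; SD, n = 4 each). Neither was called, and Siglec15 was at 0 in 1 control library. On the same list Mmp9 (log2 difference 2.82, limma adjusted p = 0.0302), Ckb (1.77, 0.0137) and Itgb3 (1.27, 0.0378) were called higher, with overlapping groups. Car2 had a lower mean log2 level without a call (-0.82, limma adjusted p = 0.207). Calcr, Siglec15, Mmp9, Ckb, Itgb3 and Car2 are named after their values were seen.

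Of the 16 tested genes on the list of V-ATPase subunits, 4 were called higher and 2 lower. Their differences lay between -0.38 and 0.83, with a median of 0.24, while Atp6v0d2 differed by 2.80. Tcirg1, counted above with the resorption machinery, also encodes a subunit of this pump and rose by 1.46 (limma adjusted p = 0.0150). Atp6ap2 (0.78, limma adjusted p = 0.0109) and Atp6v0e (0.83, 0.0110) kept their calls in 17 of 17 alternatives. Atp6v1a rose by 0.78 (limma adjusted p = 0.0242), and Atp6v0a2 was lower (-0.38, limma adjusted p = 0.0190). The call of Atp6v1a was lost without control replicate 2 (0.0677), control replicate 4 (0.0603) or knockout replicate 4 (0.0732). That of Atp6v0a2 was lost without control replicate 2 (0.0548) or knockout replicate 4 (0.0554) and under the scaling without muscle and the most abundant genes (0.0925). Under that scaling 8 subunits were called higher and 0 lower, beside 2726 and 777 of all 15046 genes then tested. The difference between Atp6v0d2 and the list was tested only against Atp6v0d1, as above.

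**Figure D5:**
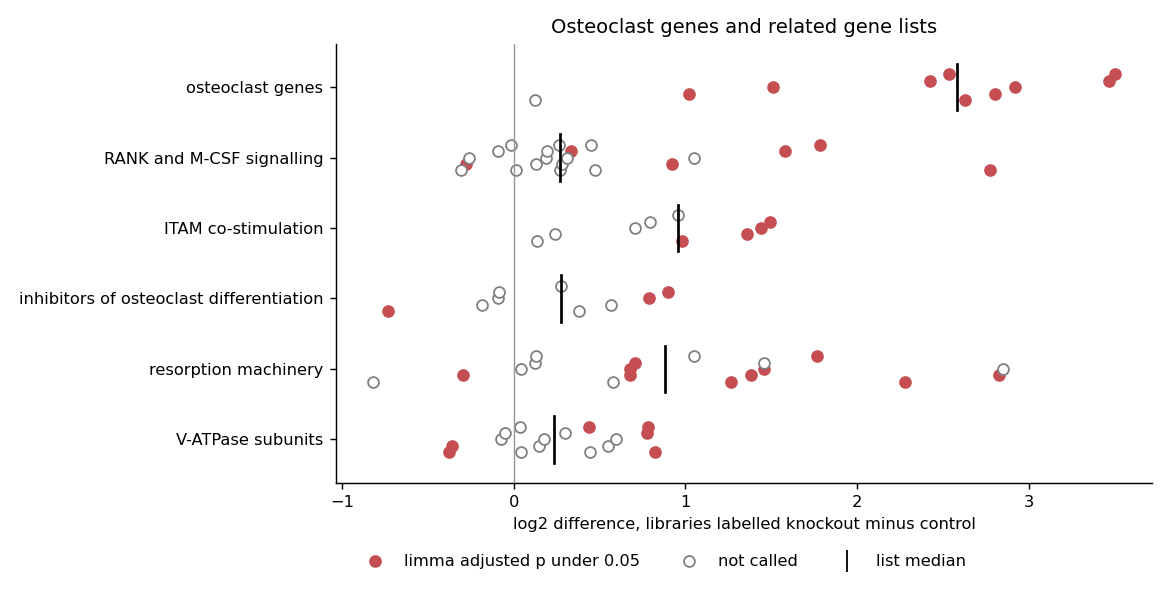
Log2 difference (libraries labelled knockout minus control) of each tested gene in the set of 10 and in 5 related lists; filled red points have a limma adjusted p under 0.05, open points do not, and black bars are list medians. The median is 2.58 for the osteoclast genes and between 0.24 and 0.96 for the 5 lists.

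The genes whose values ran most like the mean log2 level of Acp5, Ctsk and Atp6v0d2 over the 8 libraries were looked up among all tested genes with a mean of at least 50. By Pearson's r across the 8 libraries, given as a description since the libraries fall into 2 groups, they included Slc37a2 (0.997), Fam102a (0.994), Pstpip1 (0.987), Slc9b2 (0.983), Ckb (0.982), Tmem176b (0.982) and Cfp (0.980). Slc37a2 stood at 519, 78.7, 83.2 and 63.5 across the control replicates and at 1623, 327, 623 and 980 across the others. Slc9b2 showed the same high control replicate 1, with 271 against 38.4, 23.4 and 36.1, and 963, 195, 310 and 556 in the libraries labelled knockout. Both genes were chosen for their likeness to Acp5, Ctsk and Atp6v0d2, so their placing of control replicate 1 above knockout replicate 2 is no separate result.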

How the data were processed

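Per the series' design text and the submitters' processing notes, the authors aligned reads to mm10 with HISAT2, counted them per gene with featureCounts and normalised and filtered them with DESeq2. Versions, annotation and strand use are not given in the sources used here. The deposited values are a normalised signal, read counts divided by a size factor for each library. Every library's values, 100% of them, were whole multiples (tolerance 0.01) of 1 step, which recovers the reads. In control replicate 2 and knockout replicate 1 that step is close to 1, so for their lowest values the check says little. The count of genes called with edgeR on these reads was 3324.

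Testing took genes that reached 10 in 4 or more libraries, on log2(value + 1), with limma 3.58.1 (eBayes with trend) and Benjamini-Hochberg adjustment over all genes tested. Calls use an adjusted p under 0.05. Alternatives were pseudocounts of 0.5 and 5, no filter, TMM, quantile and composition scaling, edgeR 4.0.16, DESeq2 1.42.0, a replicate block and leaving out each library. The fits were checked on simulated counts. Ratios were compared by exact two-sided permutation tests. Positions, overlaps and exon lengths are from GENCODE M21, which matched 99.2% of the rows by symbol.

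The 10 genes and all lists were chosen with earlier results of these data known. Named are the 10 genes, Atp6v0d1, Loxl2, from each other list up to 4 called genes of smallest adjusted p (with none called, the 2 of smallest p), and the 8 genes most like the resorption genes; lists other than the pathway, bone and macrophage ones are given mainly by counts. A few genes that the rule names are not reported here. Replicate numbers were not taken as pairs: deviations of same-numbered libraries correlated at 0.21, -0.12, -0.23 and -0.06 across genes.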

Additional observations from a re-analysis of the deposited data

Results flagged for a closer look

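For 5 of the 10 genes, control replicate 1 stood apart from the other 3 control libraries, by a gap to the nearest of them that took up most of the group's whole range, beyond Dixon's 95% critical value for 4 samples. These values were 53.0 for Dcstamp (gap 0.914 of the range), 66.0 for Ocstamp (0.843), 75.7 for Oscar (0.952), 5002 for Acp5 (0.962) and 297 for Atp6v0d2 (0.906). The gaps were taken on normalised read counts. Log2 values, on which these gaps take up less of the range, were not examined for the 10 genes. No library labelled knockout stood apart in this way, and neither did any of the 3 ratios, which are on the log2 scale. In all, 26 groups of 4 values were examined. Chance alone flags about 1 in 20 where values are normally distributed, which read counts need not be. The 5 values come from the same library. In that library the summed bone-cell markers were 65074, the highest of the control group and mostly Col1a1 (58034), and the summed macrophage markers were 2148, within its range. Summed neutrophil markers (5505) and summed T and B cell markers (265) were also the highest of the control group there. The part of any of these lists in the 5 values was not tested.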

How the results depend on the processing

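None of the 10 genes changed direction under any of the 17 alternatives. Of 170 such results 136 kept their side of the threshold and 34 lost a call. With each library left out in turn, the count of all genes called ranged from 1740 (without knockout replicate 4) to 3832 (main value 3461), with 1909 when control replicate 2 was left out and 2209 for control replicate 4. The count of the 10 genes called ranged from 3 to 9 and of genes called on the 5 pathway lists from 16 (without control replicate 2 or knockout replicate 4) to 31, with 19 without control replicate 4 and a main value of 29. The number of the 10 genes with separate groups ranged from 2 to 8, an alternative chosen after seeing the data. Differences of the log2 ratios ranged from 1.36 to 1.81 for Tnfsf11 to Tnfrsf11b, 2.23 to 3.53 for Atp6v0d2 to Atp6v0d1, and 0.92 to 1.81 for Ctsk to the macrophage markers. The last 2 passed 0.05 only without control replicate 1, their only overlapping control library (exact permutation p = 0.0286, the smallest then possible). The count of all genes called rose above the main value without knockout replicate 3 (3832) or control replicate 3 (3490). It fell below it without each of the other libraries. Why the count depended on the library left out was not tested.

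With the replicate block the count of all genes called was 2018 and 8 of the 10 genes were called, Tnfrsf11b being lost (limma adjusted p = 0.0638). The block also ended the calls of Atp6v0a2 (limma adjusted p = 0.0532) and Loxl2 (0.0513) and of no other named pathway, bone or macrophage gene. In the paired sign-flip test of the log2 ratio of Tnfsf11 to Tnfrsf11b, the difference of 1.61 had an exact p of 0.125, the smallest that 4 pairs allow. Only replicate 1 correlated positively with its own number. Depth limits Tnfsf11 and Dcstamp most, with as few as 2 reads in a control library.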
